A study of Mus musculus with 24 samples.

Results

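The mouse airway secretory cell genes described here are Scgb1a1, Scgb3a1, Scgb3a2, Bpifa1 (older symbol Plunc), Muc1, Muc5b, Pigr, Agr2, Ltf and Reg3g. These 10 genes were chosen by symbol, for what they are known to encode, by a rule that uses no measured value. Earlier results of these data were known when they were chosen. Of the 10, 9 had a probe on the array and 8 had a probe above background on enough arrays to be tested, of 17910 genes with a probe and 13465 genes tested in the series. No probe was matched to Muc5b, which was not analysed here, and Agr2 was at or below background on every array.

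RNA from the lungs of 24 mice was hybridised to Illumina bead arrays, with 1 array for each animal. The lines used, AIRmax and AIRmin, were bred by selection for a strong and a weak acute inflammatory reaction, and no single allele sets them apart in the labels. Mice received 2 intraperitoneal injections, 48 h apart, of urethane at 1 mg per g body weight or of saline, and lungs were taken 21 days later. Urethane is a carcinogen used to induce tumours in the mouse lung, and the tissue was labelled as normal parenchyma. The groups were AIRmax urethane, AIRmax saline, AIRmin urethane and AIRmin saline, each with 6 mice, 3 female and 3 male, numbered as separate mice in the labels. The age of the mice is not stated in the labels, and the number of arrays limits the precision of every difference below.

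The conducting airways are lined by secretory cells, mostly club cells in the mouse, and by ciliated cells. Secretory cells release secretoglobins, which are small secreted proteins, together with mucins and proteins that bind or kill microbes, and they carry IgA from the tissue to the airway surface. In the mouse lung, club cells are known to be damaged by inhaled or circulating toxicants that their cytochrome P450 enzymes activate, and they can divide and replace lost airway cells. Airways are a small share of a whole-lung sample. Fewer cells of a type and less RNA per cell cannot be told apart in these data.

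Values are log2 intensities, so a difference of 1 is a doubling of signal, and differences are given as the first group named minus the second. The limit of background was a log2 value of 7.88. Tests are from limma over all 18730 probes above that limit on at least 3 arrays, with Benjamini-Hochberg adjustment over all of them and a threshold of 0.05. Where a gene had several probes, the brightest is given first. Different probes were set against each other only as brightness on the array, not as amounts of RNA.

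Array-to-array correlations over the 18730 tested probes lay between 0.935 and 0.994. Markers of tissues outside the lung parenchyma were high in some mice. A squamous epithelium score, the mean difference of 15 of 19 listed genes from their medians over the 24 mice, was above 1 in 10 mice, namely 2 AIRmax urethane, 1 AIRmax saline, 2 AIRmin urethane and 5 AIRmin saline mice. In AIRmax urethane mouse 4 a hepatocyte score of 8 of 16 listed genes reached 7.05, while Alb, Fgb, Cyp2c29 and Fabp1 of that list were at or below background on every array. AIRmin saline mouse 20, labelled female, had a Xist signal of 7.91, against 10.46 to 12.34 in the other 11 females and 7.74 to 8.06 in the 12 males, and a Ddx3y signal of 12.80, within the male range of 12.77 to 13.38. The library labelled female is kept under its label, and results on sex are given with and without it.

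Bpifa1, Scgb3a1, Ltf and Reg3g varied more among mice than the other 4 tested genes, and their start regions are shown for that reason, from 250 bases before to 50 bases after the annotated start (RefSeq, GRCm38.p6). Bpifa1 lies at chr2:154142630-154142929 on the plus strand, Scgb3a1 at chr11:49663345-49663644 on the plus strand, Ltf at chr9:111019042-111019341 on the plus strand and Reg3g at chr6:78468825-78469124 on the minus strand, and each sequence is given 5′ to 3′ along the gene's own strand. Capitals mark matches, on either strand, to a TATA box (TATAAA), a forkhead motif (TGTTTAC or TGTTTGC), the NKX2-1 core (CTCAAG), the C/EBP core (TTGCAA) and the ETS core (AGGAAG).
Bpifa1: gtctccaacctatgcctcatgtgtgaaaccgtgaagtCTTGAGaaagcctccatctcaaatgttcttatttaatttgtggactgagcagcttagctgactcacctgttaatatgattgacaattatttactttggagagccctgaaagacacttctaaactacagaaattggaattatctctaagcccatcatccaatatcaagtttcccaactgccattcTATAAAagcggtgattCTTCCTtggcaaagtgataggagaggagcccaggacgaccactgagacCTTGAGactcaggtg
Scgb3a1: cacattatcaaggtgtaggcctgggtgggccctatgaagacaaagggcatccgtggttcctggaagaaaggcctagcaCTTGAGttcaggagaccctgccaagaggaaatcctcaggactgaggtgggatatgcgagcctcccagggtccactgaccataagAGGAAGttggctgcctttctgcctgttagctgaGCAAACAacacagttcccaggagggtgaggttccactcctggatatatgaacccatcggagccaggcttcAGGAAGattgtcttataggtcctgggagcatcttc
Ltf: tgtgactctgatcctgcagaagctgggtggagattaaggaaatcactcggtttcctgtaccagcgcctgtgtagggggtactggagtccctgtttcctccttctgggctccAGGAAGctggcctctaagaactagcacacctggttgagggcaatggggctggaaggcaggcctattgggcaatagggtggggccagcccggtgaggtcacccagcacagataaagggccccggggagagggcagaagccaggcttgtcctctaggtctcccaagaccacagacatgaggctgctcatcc
Reg3g: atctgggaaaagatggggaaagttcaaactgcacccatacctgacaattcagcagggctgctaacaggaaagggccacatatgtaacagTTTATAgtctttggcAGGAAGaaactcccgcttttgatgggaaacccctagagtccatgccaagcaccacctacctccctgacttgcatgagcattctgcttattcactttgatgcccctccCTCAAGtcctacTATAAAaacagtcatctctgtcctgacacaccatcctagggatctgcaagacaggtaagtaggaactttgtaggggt
Positions are counted from the start site, with the base before it as -1. A TATAAA match stood at -29 in Bpifa1 and at -27 in Reg3g, the usual place of a TATA box, with another Reg3g match at -161 on the minus strand. CTCAAG matches stood at -213 and 36 in Bpifa1 and at -172 in Scgb3a1, all on the minus strand, and at -39 in Reg3g. AGGAAG occurred in each of the 4, a forkhead match occurred only in Scgb3a1, at -55 on the minus strand, and TTGCAA in none of the 4. Of the 32851 RefSeq start regions of the same length, 13.6% held TATAAA, 8.48% a forkhead match, 15.9% CTCAAG, 6.23% TTGCAA and 35.4% AGGAAG. No match to 1 of these motifs overlapped a match to another in the 4 regions, and a match is a description of the letters only.

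Urethane was compared with saline 21 days after injection, over both lines and within each. None of the 8 tested members passed the test in any of these comparisons. Bpifa1, Scgb3a1, Ltf and the dimmer probe of Scgb3a2 had lower average signals in urethane mice, with large differences between individual mice. Muc1 was slightly higher on average. Scgb1a1, Pigr and the brighter Scgb3a2 probe differed by -0.004, -0.02 and -0.04 over both lines. Reg3g differed by -0.10, with an SE of 0.46. Over both lines, 0 of the 14 tested probes of the 8 genes passed the adjusted threshold in limma, where 0.71% of all tested probes did. Of the 14, 5 had an unadjusted p under 0.05, against 12.4% of all probes. These 5 include both probes of Scgb3a1, and by the brightest probe of each gene the count was 2 of 8. The median difference of the 14 probes was -0.07, against -0.01 over all tested probes.

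Scgb1a1 encodes the main secreted protein of club cells. Its log2 signal was 16.04 at the lowest, 16.04 at the median and 16.07 at the highest in AIRmax urethane mice, against 16.04, 16.05 and 16.08 in AIRmax saline mice. In AIRmin urethane mice it was 16.01, 16.02 and 16.05, against 15.995, 16.03 and 16.06 in AIRmin saline mice. The groups overlapped, and no mouse stood apart. Scgb1a1 ranked 19 of 18730 tested probes by mean signal, its intensities of 65329 to 69232 lay close to the highest value of the table, 70078, and its SD within cells of the design was 0.0190, which is larger than that of only 0.0320% of tested probes. Whether the scanner was saturated there was not tested, and a difference between mice could not be read from this probe. Cyp2f2, the club cell P450, lay at 15.99 to 16.09 in the same mice.

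Scgb3a1 and Scgb3a2 are secretoglobins of the conducting airway. The brighter Scgb3a1 probe had values of 10.12, 12.81 and 13.38 at the lowest, median and highest in AIRmax urethane mice, against 12.44, 12.95 and 13.55 in AIRmax saline mice. In AIRmin it had 10.70, 12.78 and 13.23 in urethane mice, against 12.46, 13.13 and 13.76 in saline mice. Most urethane mice lay among the saline mice, and mice 4, 5, 8 and 13, 4 of the 12, lay below every saline mouse. Over both lines the difference was -0.70 ± 0.33 (SE; limma adjusted p = 0.398). The dimmer probe differed by -0.67 ± 0.26 (adjusted p = 0.296), with 6 of 12 urethane mice below every saline mouse, and the 2 probes varied together across mice within cells of the design (r = 0.948, n = 24).

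The brighter Scgb3a2 probe was near the top of the scale, with intensities of 56645 to 69384, and differed by -0.04 ± 0.04 over both lines (limma adjusted p = 0.716). The dimmer probe had 9.96, 10.84 and 11.09 at the lowest, median and highest in AIRmax urethane mice, against 10.93, 10.97 and 11.32 in AIRmax saline mice. In AIRmin it had 10.02, 10.78 and 11.12 in urethane mice, against 10.74, 11.10 and 11.29 in saline mice. On this probe 5 of 12 urethane mice lay below every saline mouse, including mice 4, 8 and 13 again, and the groups overlapped. The difference was -0.36 ± 0.11 (unadjusted p = 0.00460, adjusted p = 0.172), the lowest adjusted p of any member probe for urethane over both lines. It was -0.38 ± 0.16 in AIRmax and -0.34 ± 0.16 in AIRmin.

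Bpifa1 encodes a lipid-binding protein secreted onto the surface of the nose and larger airways, where it hinders bacteria. Its signal was 9.85, 13.48 and 14.59 at the lowest, median and highest in AIRmax urethane mice, against 12.50, 14.60 and 15.70 in AIRmax saline mice. In AIRmin it was 9.41, 12.41 and 15.23 in urethane mice, against 14.09, 14.92 and 15.42 in saline mice. In AIRmin, 4 of 6 urethane mice lay below every saline mouse of that line, while in AIRmax only mouse 4 did. The remaining urethane mice lay among the saline mice. The mean was 12.79 ± 1.88 in urethane mice and 14.64 ± 0.937 in saline mice (SD, n = 12 each), a difference of -1.85 ± 0.61 or 3.60-fold lower (SE; unadjusted p = 0.00675, limma adjusted p = 0.194). The difference was -1.38 ± 0.86 in AIRmax (adjusted p = 0.685) and -2.31 ± 0.86 in AIRmin (adjusted p = 0.336), and the 2 did not differ by a passing test (0.93 ± 1.22, adjusted p = 0.931). Without the 10 mice of high squamous score, 5 of them AIRmin saline mice, the difference over both lines was -0.74 (adjusted p = 0.792).

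Ltf encodes lactoferrin, an iron-binding antimicrobial protein of gland and airway secretions that is also stored in neutrophil granules. The brighter probe had 10.88, 13.86 and 14.88 at the lowest, median and highest in AIRmax urethane mice, against 13.44, 14.04 and 14.77 in AIRmax saline mice. In AIRmin it had 12.60, 14.63 and 15.06 in urethane mice, against 14.24, 14.64 and 15.45 in saline mice. The medians were close, and mice 4, 8 and 13 were the only urethane mice of 12 below every saline mouse. The difference over both lines was -0.50 ± 0.36 (limma adjusted p = 0.616). The dimmer probe, near background, differed by -0.29 ± 0.13 (adjusted p = 0.381).

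Reg3g encodes a secreted lectin that kills Gram-positive bacteria and is known from gut and airway epithelium. Its signal was 8.27, 10.90 and 12.86 at the lowest, median and highest in AIRmax urethane mice, against 9.37, 11.33 and 11.50 in AIRmax saline mice. In AIRmin it was 8.09, 9.70 and 11.35 in urethane mice, against 9.15, 9.89 and 10.44 in saline mice. Urethane mice reached both below and above the saline mice of their own line, and the mean difference was -0.10 ± 0.46 (limma adjusted p = 0.954). Reg3b, a related lectin, was above background on 0 of the 24 arrays.

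Muc1 encodes a membrane-bound mucin of airway and alveolar type 2 cells. Its brightest probe had 13.83, 14.44 and 14.71 at the lowest, median and highest in AIRmax urethane mice, against 13.85, 14.19 and 14.53 in AIRmax saline mice. In AIRmin it had 14.35, 14.44 and 14.51 in urethane mice, against 14.04, 14.16 and 14.63 in saline mice. The groups overlapped in both lines, and the difference of 0.20 ± 0.10 did not pass (unadjusted p = 0.0538, limma adjusted p = 0.415). The other 3 Muc1 probes differed by 0.11, 0.08 and 0.11 and varied with the brightest across mice (r between 0.865 and 0.943, n = 24).

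**Figure D1:**
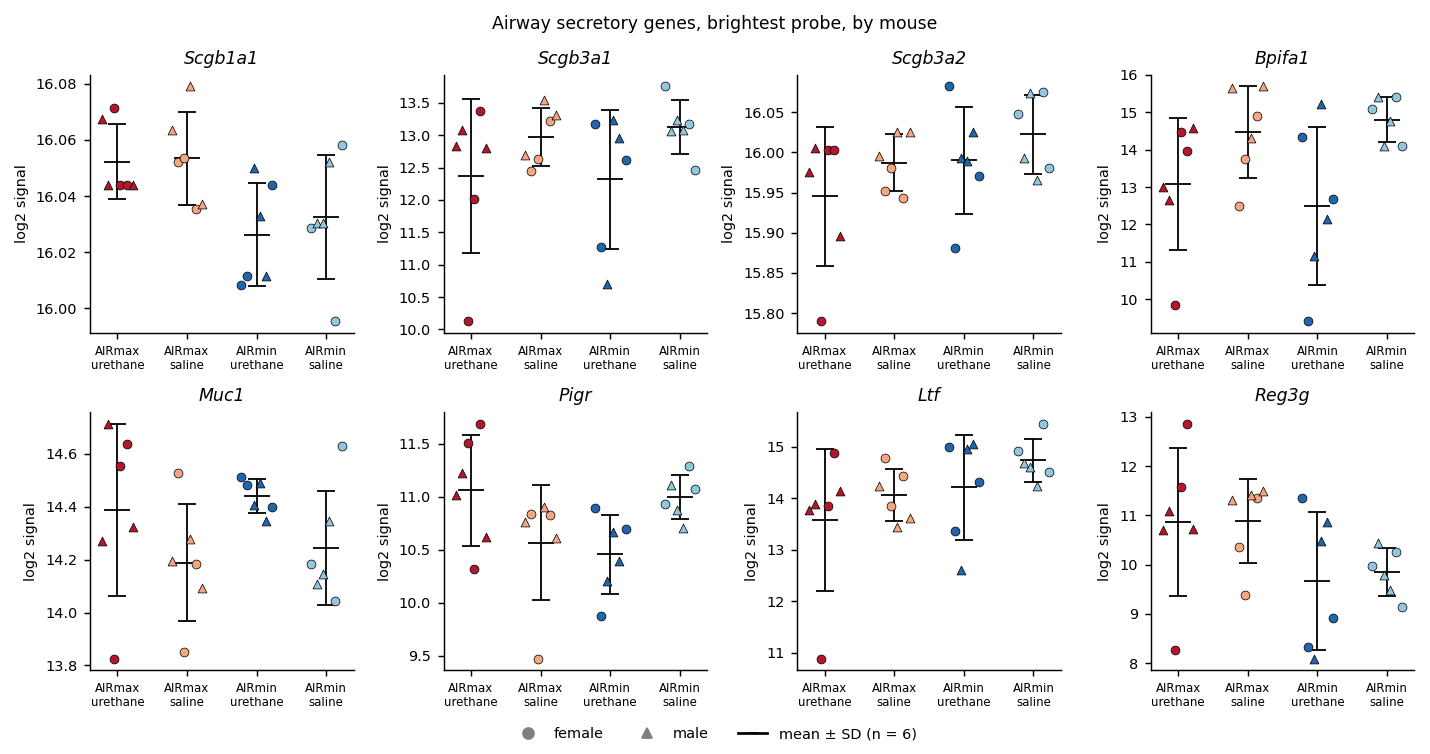
Log2 intensity of the brightest tested probe of each of the 8 tested genes, 1 point per mouse, in AIRmax urethane, AIRmax saline, AIRmin urethane and AIRmin saline mice (6 each), with bars for each group's mean ± SD, circles for females, triangles for males and a vertical scale set for each gene. Bpifa1, Scgb3a1, Ltf and Reg3g each have low urethane mice, mice 4, 8 and 13 among them, while Scgb1a1 and Scgb3a2 stay within a narrow band near the top of the scale.

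Pigr, the polymeric immunoglobulin receptor that carries IgA across the epithelium, had average urethane differences of opposite sign in the 2 lines. Its signal was 10.32, 11.12 and 11.69 at the lowest, median and highest in AIRmax urethane mice, against 9.47, 10.80 and 10.90 in AIRmax saline mice. In AIRmin it was 9.88, 10.53 and 10.89 in urethane mice, against 10.71, 11.01 and 11.30 in saline mice. In AIRmax, 4 of 6 urethane mice lay above every saline mouse, and in AIRmin 5 of 6 urethane mice lay below every saline mouse. The difference was 0.49 ± 0.25 in AIRmax (unadjusted p = 0.0593, limma adjusted p = 0.595) and -0.54 ± 0.25 in AIRmin (unadjusted p = 0.0397, adjusted p = 0.444). The AIRmax response minus the AIRmin response was 1.04 ± 0.35 (unadjusted p = 0.00767), which did not pass after adjustment (adjusted p = 0.675).

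Of the 14 member probes, Pigr's was the 1 with an unadjusted p under 0.05 for this difference of responses, against 6.26% of all probes, and by limma 0 of 18730 probes, or 0%, passed after adjustment. Leaving out each mouse in turn gave 0.81 to 1.25, the lowest without AIRmax saline mouse 12, whose Pigr was the lowest of all, and it was 0.68 with the squamous score added as covariate. Of the IgA and plasma cell genes, 0 of 11 tested passed in any comparison. Jchain, the chain that joins dimeric IgA, was above background on 14 arrays and differed by -0.03 ± 0.08 between the lines, and no probe was matched to Igha.

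Within the lines, the counts were as follows. In AIRmax 0 of 14 member probes passed for urethane, where 0.203% of all tested probes did, and 1 of 14 had an unadjusted p under 0.05, against 8.65% of all probes. In AIRmin 0 of 14 passed, where 0.256% did, and 3 of 14 had an unadjusted p under 0.05, against 10.6%. The median member difference was -0.03 in AIRmax and -0.26 in AIRmin, against -0.02 and 0.01 over all probes. These comparisons do not test whether the lines differed.

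**Figure D2:**
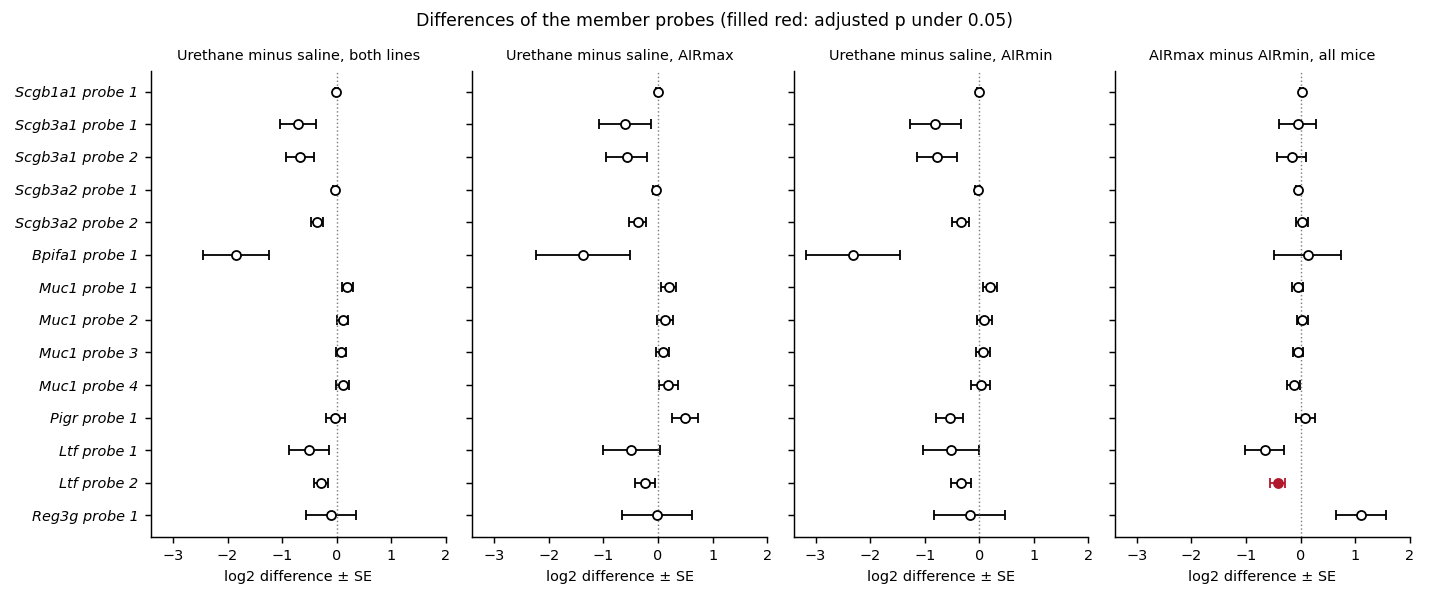
Log2 difference with its standard error for each of the 14 member probes (probe 1 is the brightest of its gene), for urethane minus saline over both lines, in AIRmax and in AIRmin, and for AIRmax minus AIRmin over all mice. Pigr lies at 0.49 in AIRmax and -0.54 in AIRmin, Bpifa1 lies at -1.85 over both lines with a wide error, and the dimmer Ltf probe between the lines is the 1 filled point, which passed the test.

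AIRmax was compared with AIRmin over all mice and within each treatment. Over all mice 1 of the 14 member probes passed, the dimmer probe of Ltf, where 12.9% of all tested probes did. That probe had 7.55, 8.02 and 8.39 at the lowest, median and highest in AIRmax mice, against 7.64, 8.54 and 9.02 in AIRmin mice, and the lines overlapped. It was above background on 8 of 12 AIRmax and 10 of 12 AIRmin arrays, and the difference was -0.42 ± 0.13 (limma adjusted p = 0.0429). The brighter Ltf probe differed by -0.66 ± 0.36 (adjusted p = 0.257), and the 2 probes varied together less closely than those of Scgb3a1 (r = 0.619 and 0.948, n = 24). The call on the dimmer probe was lost in 18 of the 24 fits that left out 1 mouse (-0.51 to -0.33, adjusted p 0.00724 to 0.0807), and without the mice of high squamous score the difference was -0.18 (adjusted p = 0.732).

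Reg3g had the largest average difference between the lines among the brightest probes, over all mice. It was 8.27, 11.20 and 12.86 at the lowest, median and highest in AIRmax mice, against 8.09, 9.89 and 11.35 in AIRmin mice. The lines overlapped over most of their range, with the lowest mouse of each line, mice 4 and 13, close together. The mean was 10.88 ± 1.16 in AIRmax mice and 9.76 ± 1.00 in AIRmin mice (SD, n = 12 each), a difference of 1.11 ± 0.46 (SE; unadjusted p = 0.0252, limma adjusted p = 0.120). It was 1.19 ± 0.65 in urethane mice (adjusted p = 0.350) and 1.03 ± 0.65 in saline mice (adjusted p = 0.413). Without AIRmax urethane mouse 4 the difference was 1.44 and passed (adjusted p = 0.0118), and without the mice of high squamous score it was 1.85 (adjusted p = 0.110).

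In urethane mice 0 of 14 member probes passed for the line, where 3.55% of all probes did, and Pigr had the lowest adjusted p, with 0.61 ± 0.25 (limma adjusted p = 0.199). Without AIRmax urethane mouse 5 it was 0.82 and passed (adjusted p = 0.0453). In saline mice 0 of 14 passed, where 6.64% did, and Pigr differed by -0.43 ± 0.25 (adjusted p = 0.357). Scgb1a1, Scgb3a1, Scgb3a2, Bpifa1 and Muc1 differed between the lines by at most 0.17 in size over all mice, and none of them passed. Females were compared with males over all groups, where 0 of 14 member probes passed against 0.112% of all probes. The lowest adjusted p was that of the dimmer Scgb3a2 probe, with -0.19 ± 0.11 (adjusted p = 0.499), and without mouse 20 it differed by -0.20 (adjusted p = 0.519).

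The spread among mice of one line, treatment and sex was itself uneven across the genes. The SD within cells was 1.63 for Bpifa1, 1.23 for Reg3g, 0.975 for Ltf and 0.892 for Scgb3a1, larger than that of 99.7%, 99.5%, 99.0% and 98.8% of tested probes. It was 0.463 for Pigr, 0.250 for Muc1 and 0.0664 for the brighter Scgb3a2 probe, against a median of 0.159 over all tested probes. That Scgb3a2 probe lay near the top of the scale, and the dimmer one had 0.292, larger than 87.5% of tested probes. The 3 lowest mice were mice 4, 8 and 13 for Bpifa1, Scgb3a1, Ltf and Reg3g alike, which are 1 AIRmax female, 1 AIRmin female and 1 AIRmin male, all given urethane.

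Deviations from the cell means were correlated across the 24 mice, in a family of 76 relations among the 8 genes and marker scores, with 100000 permutations within cells. Of these, 4 passed after Benjamini-Hochberg adjustment by both Pearson's r and Spearman's rho. Ltf with Reg3g had r = 0.917 (permutation p = 0.0005, adjusted p = 0.0146) and rho = 0.822 (p = 0.00141, adjusted p = 0.0315). Scgb3a1 with Reg3g had r = 0.891 (permutation p = 0.00077, adjusted p = 0.0146) and rho = 0.826 (p = 0.00024, adjusted p = 0.0182). Without mice 4 and 6, the 2 farthest from the median of Reg3g, r was 0.844 for Ltf with Reg3g and 0.813 for Scgb3a1 with Reg3g. Without mice 4, 8 and 13 it was 0.817 and 0.771 for the same pairs. Scgb3a1 with Ltf had r = 0.860 and did not pass (permutation, adjusted p = 0.0707), and r was 0.661 without mice 4, 8 and 13. Bpifa1 had r = 0.742 with Scgb3a1, 0.739 with Ltf and 0.748 with Reg3g, and none of these passed (permutation, adjusted p = 0.0881, 0.0707 and 0.0920).

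Among the 12 urethane mice, r was 0.970 for Scgb3a1 with Ltf, 0.959 for Ltf with Reg3g and 0.943 for Scgb3a1 with Reg3g. The low mice 4, 8 and 13 are included in these values. Among the 12 saline mice it was -0.0667, 0.590 and 0.538 for the same pairs. Pigr and Reg3g showed the other order, with r = 0.235 in urethane mice and 0.760 in saline mice. These values are descriptions, the difference between treatments was not tested, and all values share the normalization of the arrays.

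**Figure D3:**
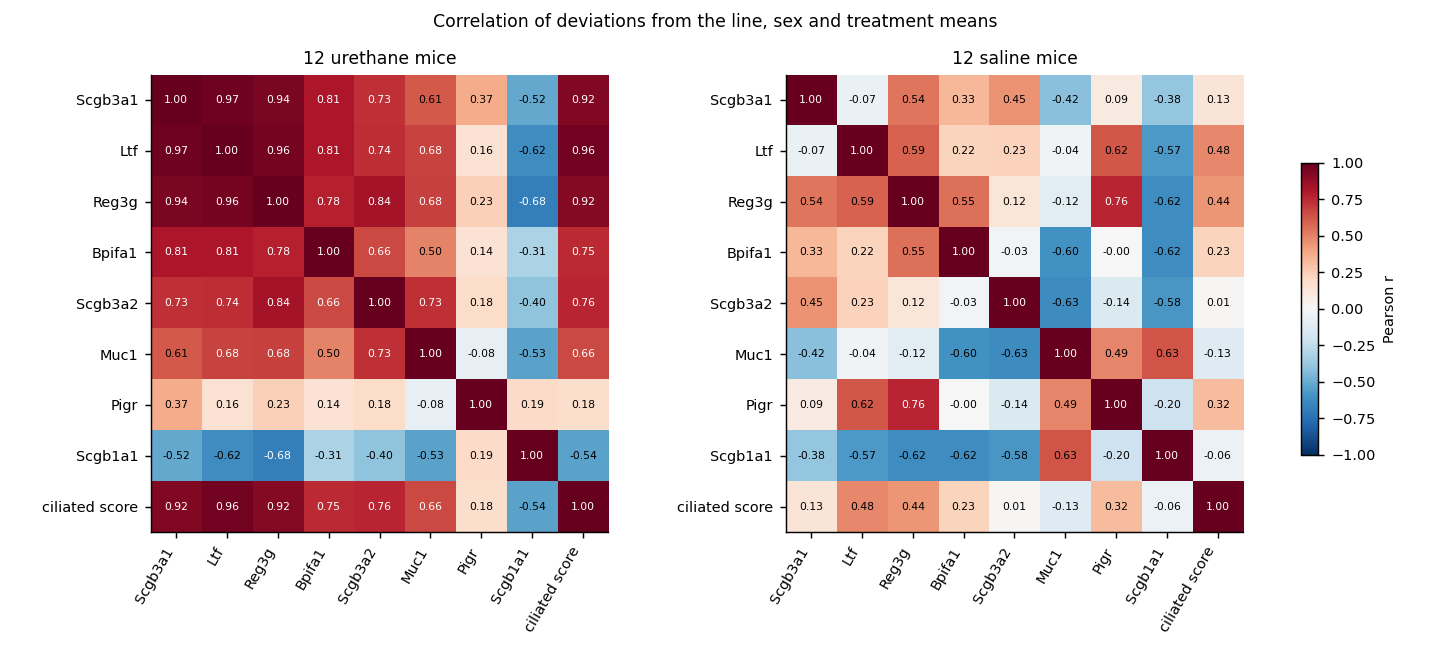
Pearson r between the deviations of gene pairs from their cell means, in urethane mice (left, n = 12) and in saline mice (right, n = 12), with the ciliated marker score as the last line. Scgb3a1, Ltf and Reg3g have r above 0.9 with each other in urethane mice, and Scgb3a1 with Ltf is near 0 in saline mice.

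Ciliated cells stand beside the secretory cells in the same airways, and their marker score correlated with Ltf and Reg3g by a passing test, but not with the other 6 tested genes. The ciliated score, over 15 of 20 listed genes, ranged from -0.535 to 0.212 in AIRmax urethane mice and from -0.137 to 0.126 in AIRmax saline mice. It ranged from -0.294 to 0.0914 in AIRmin urethane mice and from -0.0384 to 0.290 in AIRmin saline mice. Mice 4, 8 and 13 had scores of -0.535, -0.207 and -0.294. Of the 16 listed genes with a probe, 14 were above background on all 24 arrays and 0 were below it on every array.

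Ltf correlated with the ciliated score at r = 0.890 (permutation p = 0.00059, adjusted p = 0.0146) and rho = 0.812 (p = 0.00086, adjusted p = 0.0315), and r was 0.755 without the 2 farthest mice. It was 0.774 without mice 4, 8 and 13, 0.965 in urethane mice and 0.477 in saline mice, and the difference between treatments was not tested. Scgb3a1, Bpifa1 and Scgb3a2 had r = 0.795, 0.659 and 0.624 with the score, Muc1 and Pigr 0.394 and 0.213 and Scgb1a1 -0.328, and none of these passed (permutation, adjusted p between 0.0707 and 0.838). Reg3g correlated with it at r = 0.841 (permutation p = 0.00043, adjusted p = 0.0146) and rho = 0.735 (p = 0.00166, adjusted p = 0.0315), with r = 0.692 without the 2 farthest. It was 0.676 without mice 4, 8 and 13, 0.921 in urethane mice and 0.443 in saline mice. With a score of 25 other club and airway secretory genes, Reg3g had r = 0.697 and rho = 0.709, and only rho passed (permutation, adjusted p = 0.0707 and 0.0465). Ltf had r = 0.542 and rho = 0.610 with that score (adjusted p = 0.0941 and 0.0583), and no other tested gene passed with it. With the ciliated score as a covariate, an alternative chosen after the data were seen, the urethane difference over both lines was -0.78 for Bpifa1, -0.002 for Scgb3a1 and 0.35 for Ltf, and none passed (limma adjusted p = 0.575, 0.998 and 0.481). The Reg3g difference between the lines was 1.45 with the covariate and passed (adjusted p = 0.00108), as it did in urethane mice (1.31, adjusted p = 0.0491) and in saline mice (1.59, adjusted p = 0.0134). The Pigr difference of responses was 1.00 with it (adjusted p = 0.463).

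Of the ciliated markers, 1 of 15 fell with urethane over both lines, Tppp3, which encodes a microtubule-binding protein (-0.49 ± 0.07, limma adjusted p = 0.00102). Among all probes 0.71% passed in this comparison. Without the mice of high squamous score Tppp3 differed by -0.44 and did not pass (adjusted p = 0.136). The median difference of the 15 was -0.16, against -0.01 over all probes. Foxj1, the transcription factor that sets ciliated cell fate, differed by -0.08 ± 0.07.

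**Figure D4:**
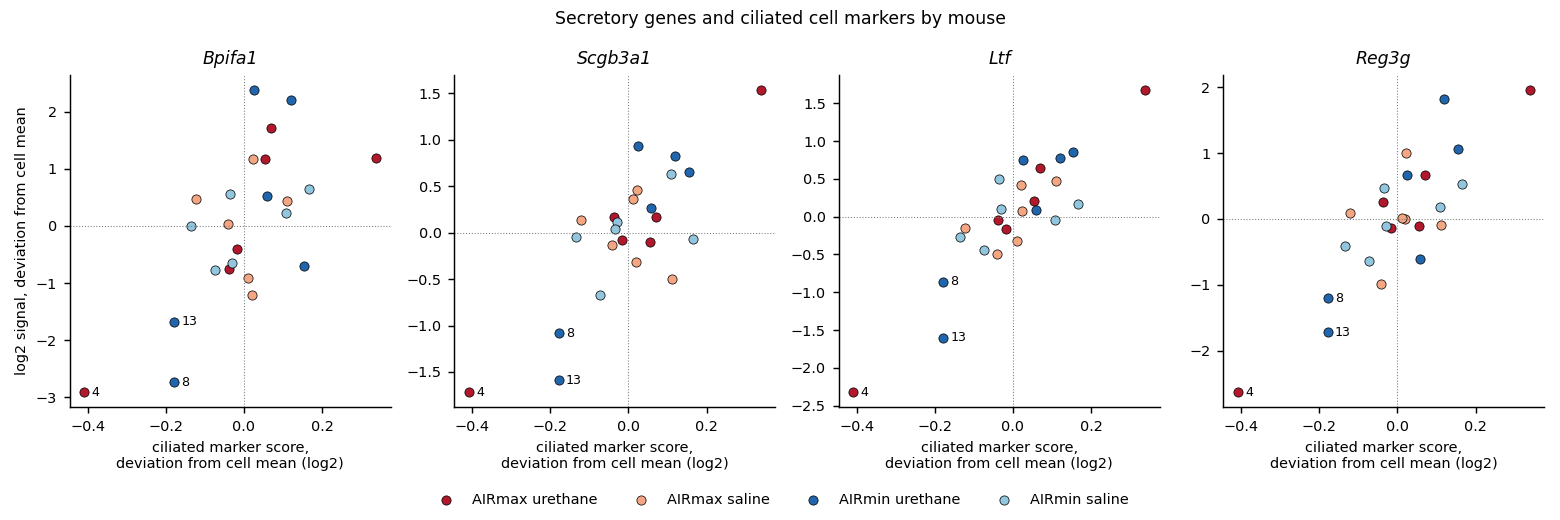
Deviations of Bpifa1, Scgb3a1, Ltf and Reg3g from their cell means (log2, vertical axes) against the deviation of the ciliated marker score (log2, horizontal axes), 1 point per mouse, coloured by line and treatment. Mice 4, 8 and 13 lie at the lower left in each panel, and the saline mice lie in a smaller range on both axes.

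Neutrophils also hold Ltf. The neutrophil score, over 13 of 16 listed genes, ranged from -0.160 to 1.54 in AIRmax urethane, -0.265 to 2.16 in AIRmax saline, -0.871 to 0.157 in AIRmin urethane and -0.283 to 0.778 in AIRmin saline mice. Of these 13, 4 were higher in AIRmax over all mice and 0 lower, against 12.9% of all probes in either direction, and 10 had an unadjusted p under 0.05, against 27.3%. Cxcr2, a chemokine receptor, differed by 1.97 ± 0.30 (limma adjusted p = 0.00017), Mmp9, a granule protease, by 1.11 ± 0.22 (adjusted p = 0.00253) and Csf3r, the G-CSF receptor, by 1.08 ± 0.28 (adjusted p = 0.0163). Camp and Ngp, which share the neutrophil granules with Ltf, differed between the lines by 0.56 ± 0.26 and 0.59 ± 0.26, the opposite sign to Ltf, and did not pass (limma adjusted p = 0.163 and 0.150). Lcn2, found in both neutrophils and airway epithelium, differed by -0.05 ± 0.20 (adjusted p = 0.899). Deviations of the brighter Ltf probe had r = -0.121 and rho = -0.232 with the neutrophil score, and neither passed (permutation, adjusted p = 0.576 and 0.476). The part of neutrophils in the Ltf values was not tested further.

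For each gene, the 3 other genes whose deviations over the 24 mice were most like its own are named as a description. For Ltf they were Cyp4a12b, Cfap52 and Spag6 (r = 0.910, 0.904 and 0.892), Cfap52 and Spag6 being axoneme genes. Sntn, a gene of the ciliary tip, was among those of Scgb3a1 (r = 0.869), Scgb3a2 (0.774) and Reg3g (0.879), in second place for each. The others were Slit2 and Man2a2 for Scgb3a1 (r = 0.883 and 0.861) and Zfp445 and Tspan14 for Scgb3a2 (0.784 and 0.756). For Reg3g they were Irf2bpl and Cyp4a12b (r = 0.883 and 0.875). Scgb1a1, whose probe lay near the top of the scale, went with Fth1, Hba-a1 and Olfr1420 (r = 0.884, 0.884 and 0.834). Muc1 went with Lamp3 (r = 0.882), a marker of alveolar type 2 cells, and with Slc7a2 and Cd276 (0.866 and 0.844). Pigr went with the complement genes C3 (r = 0.898) and C1qc (0.807) and with Cp (0.772), which encodes ceruloplasmin. Bpifa1 went with Spred2, Gtsf1l and Raly (r = 0.859, 0.838 and 0.829).

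Other genes of the secretory programme were counted from lists that do not hold the members, by each gene's brightest probe. Of 25 tested club and airway secretory genes, 0 passed for urethane over both lines, with a median difference of -0.18 against -0.01 over all probes. In AIRmax 1 of 25 rose with urethane, Dcxr, a dicarbonyl reductase, by 0.45 ± 0.08 (limma adjusted p = 0.0162), where 0.203% of all probes passed. The other tested Dcxr probe differed by 0.36 ± 0.09 and did not pass (adjusted p = 0.127). Without the mice of high squamous score the brighter Dcxr probe differed by 0.51 and did not pass (adjusted p = 0.157). Between the lines over all mice 1 was higher and 5 were lower in AIRmax, against 12.9% of all probes in either direction. Tspan8, a tetraspanin, was lower in AIRmax, with a difference of -1.41 ± 0.09 (limma adjusted p = 5.6e-09). Gsto1, a glutathione transferase, was lower with -0.58 ± 0.09 (adjusted p = 0.00032), as was Fxyd3, an ion pump regulator, with -0.53 ± 0.12 (adjusted p = 0.00602). Fxyd3 did not pass with the squamous covariate (-0.36, adjusted p = 0.0696) or without the mice of high squamous score (-0.35, adjusted p = 0.396).

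In saline mice 6 of the 25 were lower in AIRmax, where 6.64% of all probes passed in either direction, among them Aldh3a1, an aldehyde dehydrogenase, with -1.75 ± 0.48 (limma adjusted p = 0.0318). With that squamous score added as covariate, the Aldh3a1 difference was -0.05 (adjusted p = 0.956), and 2 of the 25 were lower. Without mouse 20, 3 of the 25 were lower in saline mice, and without the mice of high squamous score 2 were lower over all mice. That last fit lacks 5 of the 6 AIRmin saline mice, which leaves too few to count calls in saline mice. Tspan8 was lower in AIRmax in both treatments, with -1.37 in urethane mice and -1.44 in saline mice. Without the mice of high squamous score it differed by -1.67 in saline mice, with too few AIRmin saline mice left for a test. The score of this list was 0.187 to 0.359 in AIRmin saline mice, above every mouse of the other groups, and 5 of those 6 mice had a high squamous score. The other groups also held mice of high squamous score. Their highest list scores were -0.0187 (AIRmax urethane), 0.0631 (AIRmax saline) and 0.0772 (AIRmin urethane). The part of squamous tissue in these values was not tested beyond the covariate and the fits without those mice.

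Among relatives of the members, 5 of 15 listed secretoglobin and BPI fold genes were tested. Bpifa2, which encodes a salivary relative of Bpifa1, was higher in AIRmax by 0.64 ± 0.10 (limma adjusted p = 0.00029) and was above background in 12 of 12 AIRmax mice and 3 of 12 AIRmin mice. Without the mice of high squamous score it differed by 0.65 and did not pass (adjusted p = 0.0903). Of 13 tested goblet and mucus genes 2 passed over all mice, a share near the 12.9% of all probes. Muc4 was higher in AIRmax by 0.39 ± 0.12 (adjusted p = 0.0316) and Muc20 lower with -0.34 ± 0.08 (adjusted p = 0.0082). Both encode membrane mucins. Another Muc4 probe also passed, at 0.46 ± 0.10 (adjusted p = 0.00363). The brighter Muc4 probe did not pass with the squamous covariate (0.36, adjusted p = 0.113) or without the mice of high squamous score (0.65, adjusted p = 0.0569). Of 16 tested antimicrobial and defence genes 1 passed in saline mice, a share near the 6.64% of all probes. It was Defb1, a beta-defensin, lower in AIRmax among saline mice with -0.54 ± 0.16 (adjusted p = 0.0438), with 1 of 6 AIRmax and 5 of 6 AIRmin saline mice above background. With the squamous covariate Defb1 differed by -0.07 (adjusted p = 0.859), and without the mice of high squamous score by -0.03. The latter fit lacks 5 of the 6 AIRmin saline mice, too few being left for a test.

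Of 18 tested airway transcription factor and Notch genes 3 passed over all mice, against 12.9% of all probes. Cebpa was higher in AIRmax over all mice, by 0.26 ± 0.08 (limma adjusted p = 0.0286), and Klf5 lower with -0.22 ± 0.07 (adjusted p = 0.0314). Elf5 also passed as lower, with -0.40 ± 0.10, but another of its probes passed at 0.79 ± 0.11, so its direction is uncertain. Hey1, a Notch target, was higher in AIRmax among saline mice by 0.35 ± 0.10 (adjusted p = 0.0339), the 1 of 18 that passed there, against 6.64% of all probes. With the squamous covariate Hey1 differed by 0.14 (adjusted p = 0.605), and without the mice of high squamous score by -0.005. The latter fit lacks 5 of the 6 AIRmin saline mice, too few being left for a test. Of 11 tested endoplasmic reticulum folding genes, which serve the same secretory load as Agr2, Pdia6, a disulfide isomerase, was higher in AIRmax by 0.28 ± 0.08 (adjusted p = 0.0235), the 1 of 11 that passed, against 12.9% of all probes. Pdia6 did not pass with the squamous covariate (0.30, adjusted p = 0.0557). Without the mice of high squamous score none of Cebpa, Klf5, Elf5 and Pdia6 passed (adjusted p = 0.120, 0.492, 0.152 and 0.375). For urethane over both lines, none of the goblet, transcription factor, defence, folding or secretoglobin and BPI fold lists had a gene that passed in limma.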

How the data were processed

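Each of 24 mouse lungs was measured on 1 Illumina bead array. The values used are the deposited intensities on a linear scale, for 25697 probes, and their log2 was taken from the deposited table here. Sorted values differed by at most 0.871% between arrays, so they were taken as already quantile normalized. Per the submitters' processing notes the software was BeadStudio, with no version given, and the handling of background is not stated in the sources. Another 72 columns of per-array values carry slide positions in place of sample names and could not be assigned, so they stayed unused, slide could not be tested as a batch, and the planned filter on detection p was replaced. The background limit was the upper 0.01 quantile of values around the mode (7.40, SD 0.208), and 18730 probes above it on at least 3 arrays were tested.

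Tests used limma 3.58.1 (R 4.3.3; lmFit, then eBayes), with a mean for each of 8 cells of line, treatment and sex, 3 mice each, 16 residual degrees of freedom and Benjamini-Hochberg adjustment over all tested probes. The model was tested on simulated data. Gene names were updated through RefSeq (GRCm38.p6): 20440 probes had a current symbol, 4123 an updated one and 1134 kept the name in the file. Beyond the members, up to 3 called genes of each list and comparison with the largest differences are named, and the 3 genes most like each member. A list's score is the mean, over its tested genes, of the log2 difference from that gene's median in all 24 mice. Members and lists were chosen with earlier results of these data known. Alternatives were an added offset, normexp, other filters, fits of fewer arrays, no sex term, a trended prior, array weights, marker scores as covariates, and leaving out mice.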

Additional observations from a re-analysis of the deposited data

Results flagged for a closer look

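Within the groups of 6 mice, 56 combinations of a tested member probe and a group were examined for a mouse far from the others, and 4 had one, of which 3 were low. The criterion, Dixon's 95% critical value for the gap over the range, marks about 1 in 20 groups by chance. The dimmer Scgb3a1 probe was at 8.80 in AIRmax urethane mouse 4, with the nearest of that group at 10.54. The brighter Ltf probe was at 10.88 in the same mouse, with the nearest at 13.78. Pigr was at 9.47 in AIRmax saline mouse 12, with the nearest at 10.61. A second Muc1 probe was at 14.22 in AIRmin saline mouse 23, with the nearest at 13.87. AIRmax urethane mouse 4 also had the highest hepatocyte score (7.05) and the lowest ciliated score (-0.535) of all mice, with a squamous score of 4.37. The part of these tissues in its values was not tested.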

How the results depend on the processing

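No paired analysis was possible because no mouse number occurs in more than 1 group. Of 3882 recomputed member differences, 3848 kept their side of the threshold, 22 lost it, 7 gained it and 5 were counted as reversed. Of the 112 member results, only the dimmer Ltf probe between the lines passed in the main fit, so only it could lose the threshold. Some of the 3848 also changed sign, such as Reg3g for urethane over both lines, from -0.10 to 0.92 with the ciliated covariate. The 5 counted as reversed included 0.10 for the brighter Ltf probe between the lines in urethane mice without the mice of high squamous score. The others, with the ciliated score as a covariate, were 0.0038 for Scgb3a2 and 0.35 for Ltf for urethane over both lines. In AIRmin they were 0.0475 for Scgb3a1 and 0.52 for Ltf. For the line over all mice, the member probes called were 2 with array weights, 0 with no filter, 0 with the squamous covariate and 0 without the mice of high squamous score, and 0 to 1 with a mouse left out. In urethane mice 1 was called with the ciliated covariate and 0 to 1 with a mouse left out, and in saline mice 1 with only the arrays compared and 1 with the ciliated covariate. Over all probes, array weights called 3741 (line), 3056 (line, saline), 496 (urethane), 67 (AIRmax), 178 (AIRmin) and 61 (sex). Leaving out the mice of high squamous score called 713 (line), 280 (line, urethane), 48 (line, saline), 23 (urethane), 14 (AIRmax), 8 (AIRmin), 1 (difference of responses) and 8 (sex), in an additive model with fewer mice. The squamous covariate called 282 (line, saline), 26 (AIRmin) and 13 (sex), and only the arrays compared called 341 (line, urethane) and 20 (AIRmax). Leaving out each mouse in turn gave 687 to 1511 (line, saline), 86 to 200 (urethane), 18 to 45 (AIRmax), 28 to 62 (AIRmin), 0 to 2 (difference of responses) and 12 to 51 (sex). The causes were not tested. Signals near the top of the scale (Scgb1a1 and the brighter Scgb3a2 probe) and near background (Agr2 and the dimmer Ltf probe) limit what could be read, as does the number of mice.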
